A study of Rattus norvegicus with 3 samples.

Results

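The apolipoprotein genes encode the protein parts of the lipoproteins, the particles that carry triglyceride and cholesterol in blood. The 10 members described here are Apoa1, Apoa2, Apoa4, Apoa5, Apob, Apoc1, Apoc2, Apoc3, Apoe and Apoh, out of 14179 genes tested. They were found through the RefSeq accession of each probe, and each member had 1 probe. The list was chosen by the log2 ratios of these same arrays, so the values of the members are given as a description, and nothing is read from how many of them passed a test.

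RNA from a non-tumour region of the kidney was compared on 3 Agilent arrays of 2 colours, with 3 replicates per group by the labels. The treated rats (G200) drank GABA at 200 ppm, the controls did not, and all were Sprague-Dawley males with a labelled age of 5 weeks. On each array the control carried Cy3 (green) and G200 carried Cy5 (red), and no array had the dyes exchanged, so a dye effect cannot be told apart from the effect of GABA. The log2 ratio is that of red over green after background correction and loess normalization within the array, and a value below 0 means less signal in G200. Each array held 42877 spots other than controls, of which the share well above background was 59.8% to 62.7% in green, and in red 56.6% to 63.0%.

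Most plasma apolipoproteins are made in hepatocytes, which load lipid onto apolipoprotein B and secrete the particle, and enterocytes do the same for dietary fat. Apoe differs from the rest in being made in many tissues, among them brain, macrophages and steroid-producing cells. In the kidney, the proximal tubule takes filtered apolipoproteins back up through the receptors megalin and cubilin, and tubule cells themselves are not known as a main source of Apob or of the Apoa and Apoc proteins. The comparison of interest is therefore between the 9 members whose synthesis is largely confined to hepatocytes or enterocytes, called hepatocyte-restricted here (Apoa1, Apoa2, Apoa4, Apoa5, Apob, Apoc1, Apoc2, Apoc3 and Apoh), and Apoe. Apoc1 and Apoc2 are also made in macrophages.

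Several members lie side by side in the genome. In the order of the rat assembly GRCr8, Apoc2, Apoc4, Apoc1 and Apoe form a run of 4 protein-coding genes, and Apoa1, Apoc3, Apoa4 and Apoa5 another run of 4. Since members of both runs were lower together, the 250 bases before the start of 4 of them are shown, as listed in the RefSeq promoter table of GRCr8, 5′ to 3′ on the strand of the gene. The table holds 6 of the 10 members. Apoa1, Apoa2, Apob and Apoc3 have no entry. Where it lists several starts, the window shown is the second of 3 for Apoe and the second of 2 for Apoc1, counted along the chromosome, and the first of 2 for Apoa5. Capitals mark a match to a searched motif on either strand.
Apoe, chr1:88484700-88484949, minus strand: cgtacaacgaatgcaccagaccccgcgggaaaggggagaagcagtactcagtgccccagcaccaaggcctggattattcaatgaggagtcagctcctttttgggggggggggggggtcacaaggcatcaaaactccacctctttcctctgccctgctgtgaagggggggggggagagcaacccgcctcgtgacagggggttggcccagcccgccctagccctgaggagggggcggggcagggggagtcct
Apoc1, chr1:88478306-88478555, minus strand: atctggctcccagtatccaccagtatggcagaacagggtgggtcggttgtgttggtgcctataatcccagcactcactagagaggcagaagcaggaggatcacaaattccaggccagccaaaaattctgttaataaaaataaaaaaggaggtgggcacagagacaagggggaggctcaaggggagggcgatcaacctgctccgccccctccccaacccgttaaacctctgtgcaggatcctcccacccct
Apoc2, chr1:88462366-88462615, minus strand: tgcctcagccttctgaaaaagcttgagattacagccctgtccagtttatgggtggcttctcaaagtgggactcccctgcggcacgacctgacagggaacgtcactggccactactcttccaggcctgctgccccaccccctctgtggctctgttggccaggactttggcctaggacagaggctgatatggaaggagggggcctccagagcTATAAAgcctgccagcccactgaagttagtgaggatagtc
Apoa5, chr8:55457621-55457870, plus strand: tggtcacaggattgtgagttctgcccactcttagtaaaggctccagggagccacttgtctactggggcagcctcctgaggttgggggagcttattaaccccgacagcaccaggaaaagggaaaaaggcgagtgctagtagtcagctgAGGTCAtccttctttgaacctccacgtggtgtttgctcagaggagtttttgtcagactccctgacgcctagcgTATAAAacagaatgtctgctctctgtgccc
The motifs searched were the TATA box TATAAA, the HNF4 site CAAAGTCCA, the nuclear receptor site AGGTCA, the C/EBP site ATTGCGCAA and an HNF1 site. The HNF1 site was GTTAATNAT, with N for any base. No matches overlapped in these windows. TATAAA began 30 bases before the start of Apoa5 and 40 bases before that of Apoc2, and AGGTCA began 103 bases before the start of Apoa5. The HNF4, HNF1 and C/EBP sites matched no window of the listed members. Over 33469 promoters, 12.9% held TATAAA, 14.1% held AGGTCA, 0.338% held the HNF4 site, 0.666% the HNF1 site and 0.0388% the C/EBP site. The windows of Apoe, Apoc1, Apoa4 and Apoh held none of these letters, which says nothing about the factors.

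After loess, all 10 members had less signal in G200 on each of the 3 arrays, with mean log2 ratios between -4.05 and -1.96. Before normalization, net red was above net green on replicate 1 for Apoa1, Apoa5, Apob and Apoh, and lower than net green for the other members. All 10 were well above background in both colours on all arrays. The 10 lay among the genes that were lower at an adjusted p under 0.05 and by at least 2-fold, which were 4.03% of all genes tested. With the robust variance model of limma, which allows for genes with an unusual spread, 3 of the 10 were under an adjusted p of 0.05, and with median centring, with no normalization between the dyes or without replicate 2 it was 9. Nothing is read from any of these counts, because these ratios chose the members. The median of the 10 was -1.65, -2.76 and -3.69 on replicates 1, 2 and 3, against -0.06, -0.04 and -0.05 for all genes tested. In bulk tissue, fewer cells of a type and less RNA per cell cannot be told apart.

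**Figure D1:**
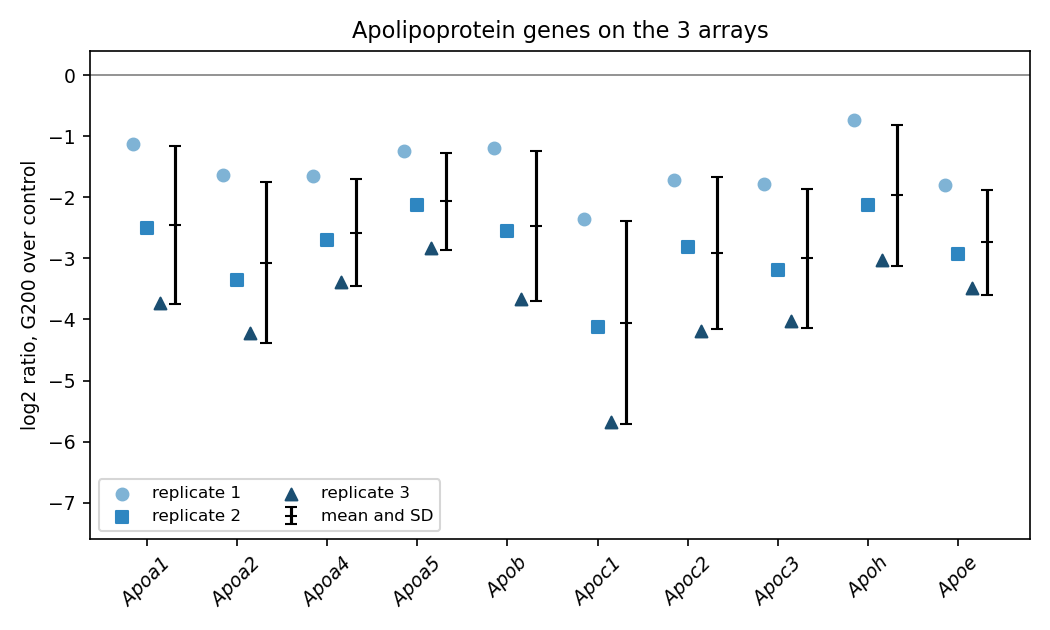
Log2 ratio of G200 over control for the 10 members on each of the 3 arrays, with the mean and SD. Every point lies below 0, and replicate 1 is nearest to 0 and replicate 3 farthest from it for each member.

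Apoa1 and Apoa2 encode the main structural proteins of high-density lipoprotein. The Apoa1 ratio was -1.13, -2.50 and -3.72 on replicates 1, 2 and 3 (mean -2.45 ± 1.30, SD, n = 3). That of Apoa2 was -1.64, -3.35 and -4.23, with a mean of -3.07 ± 1.32 (SD, n = 3). In G200, Apoa1 was thus at 45.7%, 17.6% and 7.57% of the control signal on the 3 arrays. Both genes were far lower on replicates 2 and 3 than on replicate 1, and the spread between arrays was large beside the mean.

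Apob encodes the large protein that forms the frame of very-low-density lipoprotein and chylomicrons. Its log2 ratio was -1.20, -2.54 and -3.66 on replicates 1, 2 and 3 (mean -2.47 ± 1.23, SD, n = 3). The net green intensity of its probe was 609, 682.5 and 665, and the net red intensity 722.5, 117 and 42.5. Net red over all spots other than controls also differed between arrays, with medians of 54.5, 29.5 and 39 on replicates 1, 2 and 3. After normalization between arrays, the log2 intensity of Apob had an SD of 0.018 in the control channel and 1.22 in the G200 channel.

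The Apoc proteins are small exchangeable proteins on triglyceride-rich particles. Apoc2 activates lipoprotein lipase, Apoc3 slows lipolysis and uptake, and Apoc1 hinders the clearance of remnants. Apoc1 had the lowest mean ratio of all 14179 genes tested, with -2.35, -4.12 and -5.68 on replicates 1, 2 and 3 and a mean of -4.05 ± 1.67 (SD, n = 3). Its probe was printed in 10 spots, whose log2 ratios on 1 array had an SD of 0.053, 0.058 and 0.092, far less than the differences between the arrays. The Apoc2 ratio was -1.72, -2.82 and -4.20, with a mean of -2.91 ± 1.24 (SD, n = 3), and that of Apoc3 was -1.79, -3.18 and -4.03 (SD 1.13, n = 3), which put G200 at 12.5% of the control by the mean log2 ratio. The activator and the inhibitor of lipolysis were lower by like amounts.

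Apoa4 and Apoa5 are neighbours of Apoa1 and Apoc3. Apoa4 is a protein of intestinal and hepatic particles, and Apoa5 lowers plasma triglyceride. The Apoa4 ratio was -1.65, -2.70 and -3.39 on replicates 1, 2 and 3 (mean -2.58 ± 0.88, SD, n = 3), and that of Apoa5 was -1.25, -2.12 and -2.83 (mean -2.07 ± 0.79, SD, n = 3). Apoh, also called beta-2-glycoprotein I, binds anionic phospholipid and is the main antigen of antiphospholipid antibodies. It had the smallest difference among the members, -0.74, -2.12 and -3.03 on replicates 1, 2 and 3 (mean -1.96 ± 1.15, SD, n = 3). By mean ratio the order from the lowest was Apoc1, Apoa2, Apoc3, Apoc2, Apoe, Apoa4, Apob, Apoa1, Apoa5 and Apoh. The means of neighbouring members in this order differ by less than the SD between arrays. That SD includes the order of replicates that all members shared, so it does not measure the spread of differences within an array. Apoc1 was below Apoa2, and Apoe below Apoa4, on every array. The order of the other neighbouring pairs changed between arrays.

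Apoe, the ligand by which remnant particles bind receptors on the cells that clear them, had net green intensities of 15225, 16705 and 15380 on replicates 1, 2 and 3 and net red intensities of 14312, 3373 and 3021.5. Its log2 ratio was -1.79, -2.93 and -3.48, with a mean of -2.74 ± 0.86 (SD, n = 3), so G200 was at 28.9%, 13.1% and 8.94% of the control. Apoe lay within the range of the hepatocyte-restricted members on every array. Their median was -1.64, -2.70 and -3.72, and Apoe minus that median was -0.15, -0.24 and 0.24, with a mean of -0.05 ± 0.25 (SD, n = 3). Of the 9 hepatocyte-restricted members, 1, 3 and 6 were lower than Apoe on replicates 1, 2 and 3. The ratios that place Apoe here also chose it, so no conclusion is drawn from its place. With other background corrections the mean difference was positive, at 0.31 for normexp without an offset and 0.29 for background subtraction with a floor of 0.5. It was 0.32 for the Feature Extraction log ratio, in which background and dye normalization both differ, and 0.11 both with median centring and when the dyes were not normalized. The SD between arrays was 0.57 and 0.58 for the first 2 and 0.48 for the Feature Extraction log ratio.

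**Figure D2:**
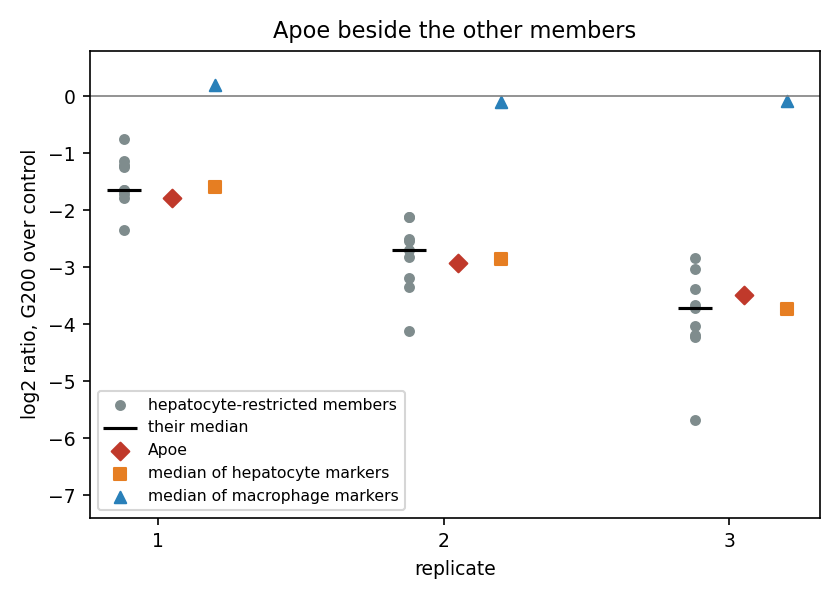
Log2 ratio of Apoe on each array beside the 9 hepatocyte-restricted members, their median, and the medians of the hepatocyte and macrophage marker lists. Apoe lies within the range of the other members on all 3 arrays, and the macrophage median lies between -0.10 and 0.19.

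The spread between arrays sat in the G200 channel. After normalization between arrays, the SD of the members' log2 intensity over the 3 control channels was 0.0070 to 0.097, with a median of 0.067 against 0.062 for all genes tested. Over the 3 G200 channels it was 0.81 to 1.67, with a median of 1.23 against 0.13 for all genes. Over 1390 probes with 5 or more spots, the green channels of the arrays differed by 0.494 to 1.17 times the squared difference that spots of the same probe give, and the red channels by 4.34 to 7.65 times. The control was for this reason treated as 1 sample, so no test covers the spread between control rats.

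**Figure D3:**
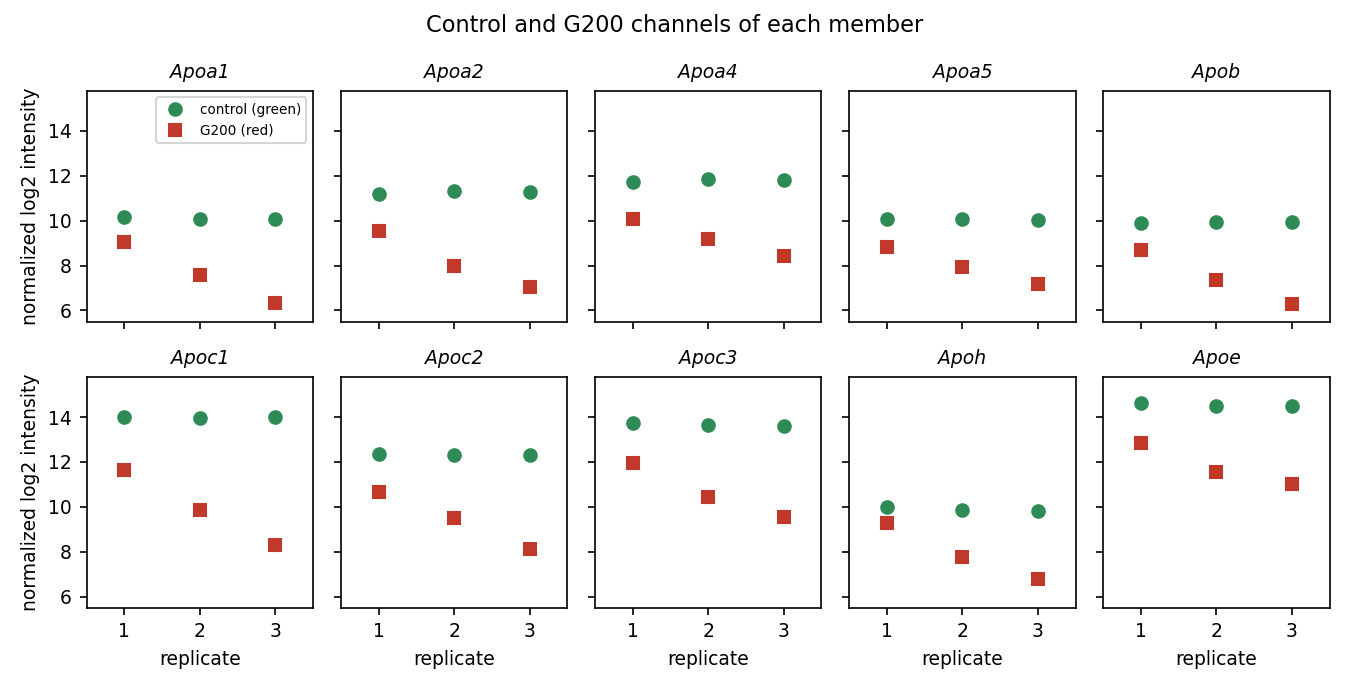
Normalized log2 intensity of the control (green circles) and G200 (red squares) channels on the 3 arrays, 1 panel per member. The control points of each gene lie nearly level, with an SD of at most 0.097, while the G200 points differ by an SD of 0.81 to 1.67. Intensities are not compared between panels.

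All 10 members had their highest ratio on replicate 1 and their lowest on replicate 3, an order that 13.5% of all genes tested showed. The difference between these replicates ranged from 1.58 for Apoa5 to 3.33 for Apoc1. For the members with dim G200 signal, the size of the ratio on replicate 3 depended on how background and dyes were treated. The deposited Feature Extraction ratio of Apoa1 there was -4.98 on the log2 scale, against -3.72 here, and that of Apob was -5.10 against -3.66. That of Apoe was -3.53 against -3.48.

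By Euclidean distance over the 3 arrays to the median profile of the hepatocyte-restricted members, the nearest genes outside the members were Mat1a, which makes S-adenosylmethionine in liver (distance 0.124), Vtn, the plasma adhesion protein vitronectin (0.126), Obp3 (0.127), C4bpa, a regulator of complement (0.134), and a transcript known only by its probe name (0.237). Nearest to Apoe were the cytochrome gene Cyp2c6v1 (0.234), Ang (0.272), C4bpb (0.275), Mat1a (0.285) and Obp3 (0.289). Mat1a and Obp3 were thus among the 5 nearest in both cases.

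Markers of hepatocytes were lower as well. This list and the other lists were chosen with earlier results of these data known, so their counts and p-values are given as a description. Of the 33 markers listed, 30 were tested and all 30 fell at an adjusted p under 0.05 (25.9% of all genes tested fell), 28 of them by at least 2-fold, though 1 of the 30 was above 0 with no normalization between the dyes. Tdo2 and Hal, well above background in G200 on 1 and 2 of 3 arrays, were tested through their control signal. With both colours required 28 were tested and 28 fell (23.3% of all genes did). The count of markers that fell depended on the variance model, since 11 of the 30 passed with the robust one, under which 25.8% of all genes fell. Ttr, Alb, Rup2 and Fabp1, named next, then had adjusted p-values of 0.0853, 0.0808, 0.0825 and 0.0619. The median of the list was -1.59, -2.85 and -3.73 on replicates 1, 2 and 3. Its median over the arrays of -2.69 was -1.62 with no normalization between the dyes, where 25 of 30 fell (2.14% of all genes did). Of the 30 genes, 29 had the same order of replicates as the members. The highest mean control signal was that of the Ttr probe, though on replicates 2 and 3 that of Alb was higher. Ttr, the carrier of thyroxine and retinol-binding protein, was at -3.72 ± 1.82 on the log2 scale (SD, n = 3, adjusted p = 0.00645). Alb, which encodes serum albumin, had -2.06, -3.73 and -5.67 on the 3 arrays (mean -3.82 ± 1.81, SD, n = 3, adjusted p = 0.00584). The largest falls beside Alb were in Rup2, at -3.93 ± 1.89 (SD, n = 3, adjusted p = 0.00605), and in the fatty acid carrier gene Fabp1, at -3.80 ± 1.53 (SD, n = 3, adjusted p = 0.00367).

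The summed net signal of the 30 markers was 15520, 17555 and 17946 ppm of the summed signal of all genes tested in the control channels of replicates 1, 2 and 3, and 5900, 2148 and 890 ppm in the G200 channels. For the 10 members the sums were 4023, 3908 and 3865 ppm in the control and 1435, 497 and 271 ppm in G200. Among the listed markers that define hepatocytes, Cps1 of the urea cycle, Tat of tyrosine breakdown and Cyp7a1, the rate-limiting enzyme of bile acid synthesis, were not well above background in either colour on any array. Of the 8 markers of other liver cells, 2 were tested and both fell (25.9% of all genes did), though Lrat turned to 0.24 with no normalization between the dyes. With both colours required to be well above background, Lrat alone was tested and fell (23.3% of all genes did), and its call was lost with median centring and without replicate 2 (-0.21) or 3 (-0.36). Lrat fell by 0.31 ± 0.18 (SD, n = 3, adjusted p = 0.0339). The Kupffer cell gene Clec4f was well above background in G200 on 1 of 3 arrays and was tested through its control signal, so no size is given for it. Reln, Colec10, Vsig4 and Marco were not well above background in either colour on any array. The part of hepatocyte RNA in the difference of the members was not tested.

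**Figure D4:**
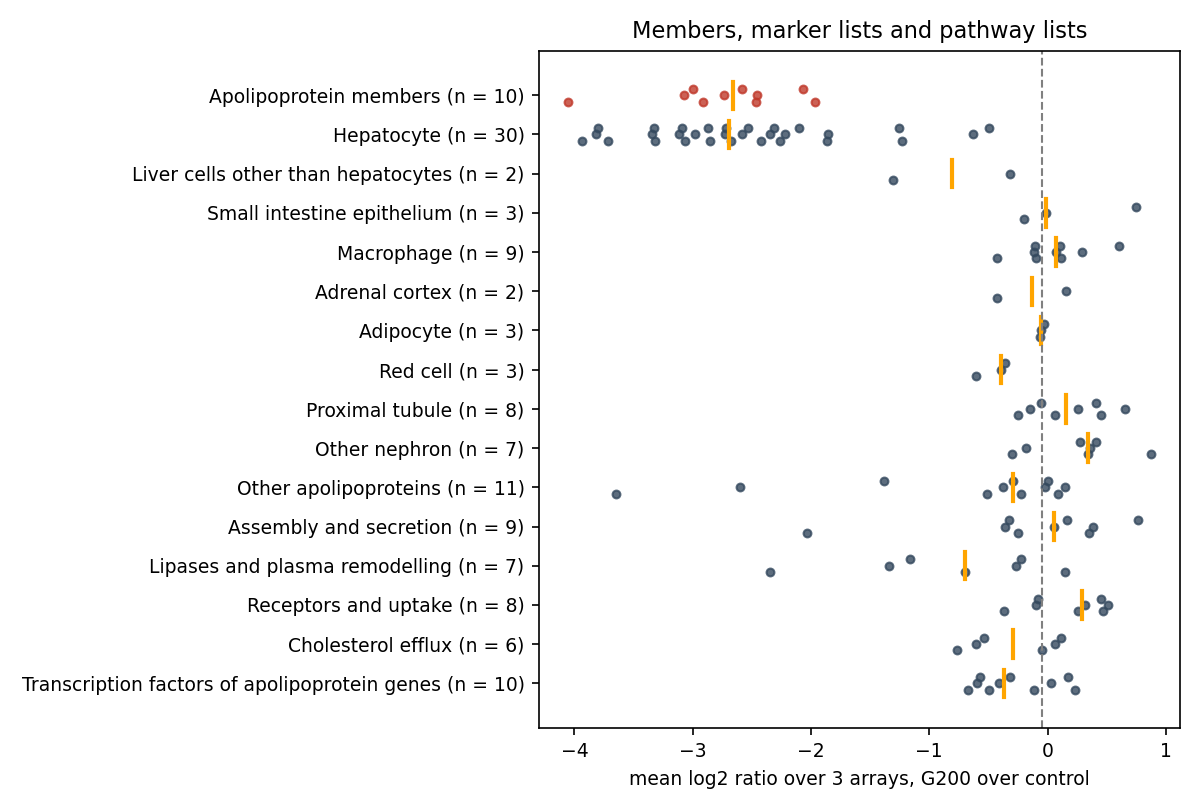
Mean log2 ratio over the 3 arrays of each tested gene, by list, with the median of the list (orange bar) and of all genes tested (dashed line). The medians are -2.66 for the members, -2.69 for the hepatocyte markers and between -0.81 and 0.34 for the other lists. Single genes lie between -4.05 and -0.50 among the members and hepatocyte markers. In the other lists they lie between -3.65 (Saa4) and 0.87 (Umod).

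Cells other than hepatocytes that make apolipoproteins gave these values. Of the 9 small intestine markers 3 were tested, with a median log2 ratio of -0.01 that was -0.67 with the Feature Extraction log ratio, 0.24 with no normalization and 0.28 over the 2 genes well above background in both colours. The enterocyte gene Fabp2 was not well above background, and Guca2a, the brightest of the 3, rose by 0.75 ± 0.26 (SD, n = 3, adjusted p = 0.00437). Of the 11 macrophage markers 9 were tested, with a median of 0.07 that was -0.072 without replicate 1, 0.37 with median centring and 0.72 when the dyes were not normalized. The lysozyme gene Lyz2, the brightest, rose by 0.60 ± 0.26 (SD, n = 3, adjusted p = 0.00874), the complement gene C1qb fell by 0.43 ± 0.24 (SD, n = 3, adjusted p = 0.0203) but was at 0.23 with median centring and 0.58 with no normalization, and the other 7 did not pass the test, against 11.6% of all genes that rose and 25.9% that fell. With median centring 2 rose and none fell (35.2% of all genes rose and 8.78% fell), and with the dyes not normalized 5 rose and none fell (56.5% rose and 2.14% fell). Without replicate 2 it was 2 that rose and none that fell (11.4% of all genes rose and 23.6% fell). None rose and none fell without replicate 3 (1.28% of all genes rose and 10.1% fell), with Lyz2 at 0.52 and C1qb at -0.41.

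Cells of steroid-producing and fat tissue, where Apoe is also made, have lists of their own. For the adrenal cortex list 2 of 7 genes were tested, with a median of -0.13 that was 0.20 with median centring and 0.55 with no normalization. Cyp21a1, the steroid 21-hydroxylase, fell by 0.43 ± 0.10 (SD, n = 3, adjusted p = 0.00686) but was at 0.23 with no normalization. Its call was also lost with median centring (-0.12) and without replicate 3 (-0.44). Cyp11b1, Cyp11b2, Star and Mc2r were not well above background in either colour. For the adipocyte list 3 of 5 genes were tested, none passed the test and the median was -0.06, turning to 0.061 without replicate 3, 0.045 with median centring and to 0.40 when the dyes were not normalized. The red cell list had 3 tested genes, none past the threshold, and a median of 0.03, -0.12 and -1.23 on replicates 1, 2 and 3, and its median over the arrays of -0.39 turned to 0.30 with median centring and 0.65 with no normalization. Its brightest gene, the globin gene Hba-a1, was at 0.03 on replicate 1 and -1.55 on replicate 3.

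Of 9 markers of the proximal tubule 8 were tested, 3 rose, 1 fell and 4 did not pass, against 11.6% of all genes that rose and 25.9% that fell. Without replicate 3 none rose and none fell (1.28% of all genes rose and 10.1% fell). With median centring 6 rose and none fell (35.2% of all genes rose and 8.78% fell), and with the dyes not normalized 7 rose and none fell (56.5% rose and 2.14% fell). Without replicate 1 it was 2 that rose and 1 that fell (6.08% of all genes rose and 18.8% fell). It was 2 and none without replicate 2 (11.4% of all genes rose and 23.6% fell). The median was 0.16 with loess, 0.055 without replicate 1, 0.060 with the mean over probes, 0.84 with median centring and 1.19 with no normalization, and Slc5a12 was not tested. The water channel gene Aqp1 rose by 0.41 ± 0.06 (SD, n = 3, adjusted p = 0.00631), and Miox, the brightest of the list, fell by 0.25 ± 0.10 (SD, n = 3, adjusted p = 0.0368) but was at 0.65 with median centring and 1.00 with no normalization. All 7 markers of other nephron parts were tested, 2 rose (11.6% of all genes did) and none fell. With median centring 5 rose (35.2% of all genes did), and with the dyes not normalized all 7 rose (56.5% did). Only 1 rose without replicate 1 (6.08% of all genes did) or without replicate 3 (1.28% did). Without replicate 2 it was 2 that rose and 1 that fell (11.4% of all genes rose and 23.6% fell). The median of 0.34 was 0.14 without replicate 1, 0.64 with median centring and 0.99 with no normalization. Umod, the uromodulin gene of the thick ascending limb, was at 0.87 ± 0.10 (SD, n = 3, adjusted p = 0.00101).

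Of 16 other genes named for apolipoproteins or tied to them, 11 were tested, 6 fell (25.9% of all genes did) and 5 did not pass. With median centring 3 fell and 3 rose (35.2% of all genes rose and 8.78% fell), with the dyes not normalized 2 fell and 6 rose (56.5% rose and 2.14% fell), and 4 fell without replicate 2 (23.6% of all genes did) or 3 (10.1% did). Of the 6, Apon was well above background in G200 on 1 of 3 arrays. With both colours required 5 of 10 fell (23.3% of all genes did). The median was -0.29 with loess, 0.35 with median centring and 0.70 with no normalization. Saa4, a constitutive protein of high-density lipoprotein and the brightest of the list, was at -2.30, -3.78 and -4.86 on replicates 1, 2 and 3 (mean -3.65 ± 1.28, SD, n = 3, adjusted p = 0.00246). Apoc4, which lies between Apoc2 and Apoc1, fell by 2.60 ± 0.54 (SD, n = 3, adjusted p = 0.000873), and Pon1, the paraoxonase of high-density lipoprotein, by 1.38 ± 0.78 (SD, n = 3, adjusted p = 0.0109), a call lost with median centring, with no normalization, without replicate 2 and with the robust variance model.

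Assembly of particles needs the transfer protein encoded by Mttp and its partner, the disulfide isomerase P4hb. Of 10 genes of assembly and secretion 9 were tested, 3 rose (11.6% of all genes did), 4 fell (25.9% did) and 2 did not pass. Without replicate 1 it was 1 that rose (6.08% of all genes did), without replicate 2 it was 2 that fell (23.6% did), and without replicate 3 none rose and 1 fell (1.28% of all genes rose and 10.1% fell). With median centring 5 rose and 2 fell (35.2% of all genes rose and 8.78% fell), and with the dyes not normalized 5 rose and 1 fell (56.5% rose and 2.14% fell). The median was 0.06 with loess, -0.050 without replicate 1, 0.63 with median centring and 0.98 with no normalization. Creb3l3, a liver and intestine transcription factor that acts on apolipoprotein genes, fell by 2.04 ± 0.72 (SD, n = 3, adjusted p = 0.00269). Mttp was counted among those that fell, but it was well above background in G200 on 1 of 3 arrays and was tested through its control signal, so no size is given for it. With both colours required to be well above background 8 were tested, 3 fell and 3 rose (23.3% of all genes fell and 11.6% rose). Dgat2, which makes triglyceride, fell by 0.33 ± 0.17 (SD, n = 3, adjusted p = 0.0277) but was at 0.26 with median centring and 0.61 with no normalization. P4hb rose by 0.76 ± 0.44 (SD, n = 3, adjusted p = 0.0139), the sorting receptor gene Sort1 by 0.39 ± 0.27 (SD, n = 3, adjusted p = 0.0363) and Dgat1 by 0.35 ± 0.12 (SD, n = 3, adjusted p = 0.0145). Tmed2, the brightest of the list, was at 0.16 ± 0.08 (SD, n = 3, adjusted p = 0.107).

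In plasma, lipases and transfer proteins reshape the particles. Of 11 such genes 7 were tested, 5 fell (25.9% of all genes did) and none rose. The median was -0.70 with loess. It was -1.37 and -1.36 with the other background settings, -1.40 with the Feature Extraction log ratio, -0.22 with no normalization and -0.27 with no filter. When both colours had to be well above background, 2 of 4 genes fell (23.3% of all genes did). With median centring 4 fell and 1 rose (35.2% of all genes rose and 8.78% fell), and with the dyes not normalized 2 fell and 2 rose (56.5% rose and 2.14% fell). Lcat, the enzyme that esterifies cholesterol on high-density lipoprotein with Apoa1 as its activator, was at -1.68, -2.33 and -3.02 on replicates 1, 2 and 3 (mean -2.34 ± 0.67, SD, n = 3, adjusted p = 0.00148). The lipase inhibitor gene Angptl4 fell by 1.17 ± 0.42 (SD, n = 3, adjusted p = 0.00342), a call lost with median centring (-0.57) and with no normalization (-0.22).

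Receptors take up lipoproteins and their remnants. Of 13 such genes 8 were tested, 5 rose (11.6% of all genes did), 1 fell and 2 did not pass. This count depended on single arrays, with 1 that rose without replicate 1 (6.08% of all genes did) and none without replicate 3 (1.28% did). With normexp without an offset 3 rose (10.72% of all genes did), and with the floor of 0.5 it was also 3 (11.01% did). With the Feature Extraction log ratio 3 rose as well (15.14% of all genes did). The median was 0.29 with loess, 0.94 with median centring, 1.29 with no normalization and 0.022 with no filter. Lrp2, which encodes megalin and was the brightest of the list, rose by 0.26 ± 0.10 (SD, n = 3, adjusted p = 0.0332), and Cubn, which encodes cubilin, rose by 0.45 ± 0.33 (SD, n = 3, adjusted p = 0.0351). The Lrp2 call was lost with the mean over its probes (0.062), with offset 0 and the floor of 0.5, with the Feature Extraction log ratio, and without replicate 2 or 3. The Cubn call was lost with the Feature Extraction log ratio and without replicate 1 or 3. The fatty acid transporter gene Cd36 rose by 0.51 ± 0.38 (SD, n = 3, adjusted p = 0.0346) and Sorl1 by 0.47 ± 0.28 (SD, n = 3, adjusted p = 0.0210). Both calls were lost without replicate 1 or 3. Scarb1, the receptor for high-density lipoprotein, fell by 0.37 ± 0.09 (SD, n = 3, adjusted p = 0.0106) but was at 0.33 with no normalization. Its call was also lost with median centring (-0.017) and without replicate 3 (-0.32). Of 7 genes of cholesterol efflux 6 were tested, 3 fell (25.9% of all genes did) and 3 did not pass. With median centring 1 fell and 2 rose (35.2% of all genes rose and 8.78% fell), with the dyes not normalized none fell and 2 rose (56.5% rose and 2.14% fell), and 1 fell without replicate 3 (10.1% of all genes did). With both colours required to be well above background 4 were tested and 2 fell (23.3% of all genes did). The median of -0.29 was 0.038 with median centring and 0.39 when the dyes were not normalized. The 3 that fell were the sterol transporter gene Abcg5, given without a size because it was well above background in G200 on 2 of 3 arrays, Abca7, at -0.61 ± 0.25 (SD, n = 3, adjusted p = 0.00803), and the liver X receptor gene Nr1h3, the brightest, at -0.54 ± 0.18 (SD, n = 3, adjusted p = 0.00652). Nr1h3 was at 0.14 with median centring, and with no normalization Nr1h3 was at 0.49 and Abca7 at 0.29. Abca1, the transporter that loads Apoa1 with cholesterol, was at -0.05 ± 0.17 (SD, n = 3, adjusted p = 0.669), and was well above background in G200 on 2 of 3 arrays.

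Of 18 transcription factors known to act on apolipoprotein genes 10 were tested, 6 fell (25.9% of all genes did), 1 rose (11.6% did) and 3 did not pass. With median centring 2 fell and 1 rose (35.2% of all genes rose and 8.78% fell), with the dyes not normalized none fell and 4 rose (56.5% rose and 2.14% fell), and without replicate 3 it was 3 that fell and none that rose (1.28% of all genes rose and 10.1% fell). The median was -0.37 with loess, 0.078 with median centring and 0.43 with no normalization. Hnf4a, a nuclear receptor of hepatocytes and proximal tubule, fell by 0.32 ± 0.04 (SD, n = 3, adjusted p = 0.0129) but was at 0.15 with no normalization. Nr1h4, the bile acid receptor, fell by 0.60 ± 0.14 (SD, n = 3, adjusted p = 0.00350), Cebpb by 0.57 ± 0.36 (SD, n = 3, adjusted p = 0.0199) and Nr2f2, the brightest of the list, by 0.41 ± 0.18 (SD, n = 3, adjusted p = 0.0139). With median centring these 3 were at 0.053, 0.10 and 0.28, and with no normalization at 0.40, 0.45 and 0.63. Onecut1 was not well above background in G200 on any array and was at least 1.58-fold lower after loess. With no normalization between the dyes Onecut1 was at -0.39 and its call was lost. It was tested through its control signal, so no p-value is given. With both colours required to be well above background, 7 of these 18 factors were tested. Of these 7, 4 fell and none rose (23.3% of all genes fell and 11.6% rose). Cebpa and Foxa3 were not well above background in either colour on any array.

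The genes next to the 2 runs of apolipoprotein genes were looked at as well. This set, 3 protein-coding genes on each side, was chosen after the values of the members were seen. Beside the run of Apoa1, Sidt2, Pafah1b2, Sik3 and Zpr1 were tested, with mean log2 ratios between -0.17 and 0.19, and none passed the test. Beside the run of Apoe, Clasrp fell by 1.00 ± 0.15 (SD, n = 3, adjusted p = 0.00100), Clptm1 fell by 0.38 ± 0.23 (SD, n = 3, adjusted p = 0.0264) and Bcam rose by 0.37 ± 0.20 (SD, n = 3, adjusted p = 0.0250). With no normalization Clasrp was at 0.0079 and Clptm1 at 0.73, and Clptm1 was at 0.38 with median centring. The Clasrp call was lost with median centring (-0.34) and that of Bcam without replicate 1 (0.25) or 3 (0.41), and the Clptm1 call with offset 0, with the floor of 0.5, with the Feature Extraction log ratio and without replicate 1 (-0.27) or 3 (-0.39). Of all genes tested 25.9% fell and 11.6% rose. The medians of the members were -2.52 in the run of Apoa1 and -2.91 in that of Apoe.

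The signs of small changes depended on the scaling between the dyes, while those of the members' means over the arrays did not. On replicate 1, net red before normalization was above net green for Apoh (1117.5 against 657) and Apoa1 (955 against 748). The same held for Apoa5 (799.5 against 690.5) and Apob (722.5 against 609). The signs of Apoh, Apoa1, Apoa5 and Apob on that array thus depended on the scaling. The median of all genes tested was -0.05 with loess, 0.27 with median centring of each array and 0.62 when the dyes were not normalized, and G200 was the higher in 30.8%, 80.0% and 96.3% of called genes. The mean over the arrays of every member stayed below 0 in all 12 alternatives that gave it. The value nearest to 0 was -0.99 for Apoh. Without replicate 3, 1611 genes passed the adjusted threshold in place of 5316, and 25 of 51 called genes outside the members, taken by the naming rule or lying next to the 2 gene runs, lost their call, among them Lrp2, Cubn, Hnf4a and P4hb. All 3 arrays lay on 1 slide and were read in 1 scan.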

How the data were processed

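Kidney RNA of G200 and control rats was measured on 3 arrays. The authors scanned them with Agilent Feature Extraction (9.3.2.1 by the submitters' processing notes, 11.5.1.1 by the file headers) and deposited, per spot, the median intensity and local background of both colours, not normalized, and a log10 ratio of red over green after background subtraction and dye normalization. The authors' p-value and error columns were not used. The design had assumed mean spot signals if present, and the median was used.

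From the intensities, background was corrected with limma 3.58.1 in R 4.3.3 (normexp, offset 50), followed by loess within each array. Control spots and outlier marks were left out and spots of a probe averaged. A probe was kept if green, or red, was well above background on all 3 arrays (15647 of 30367 with values on all arrays), and the brightest probe stood for its gene. How probes with several spots pass this filter had not been fixed. An every-spot rule was tried first, and the rule used, more than 0.5 of the spots, was chosen after seeing the data because it gave the gene count of an earlier analysis of the same arrays. The every-spot rule was kept as an alternative. Symbols came from RefSeq (GRCr8) through accessions for 18355 probes. The array follows an older build, so coordinates are given for promoters alone.

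The mean of the log2 ratios over the arrays was compared with 0 for every gene by the moderated statistic of limma (lmFit, then eBayes). P-values are two-sided, adjusted by Benjamini-Hochberg across all genes, and called under 0.05. All adjusted p-values are from this fit, except those given for the robust variance model (eBayes with robust on). Genes could pass the filter through the control signal alone, which favours a lower ratio, so the both-colours filter was among the alternatives. For a bound, a G200 signal under the lowest one well above background on its array was replaced by that one, after loess and Aquantile normalization. Summed signals used spot minus background of the tested probe of each gene. Distances are Euclidean over 3 arrays.

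Members and lists were chosen with earlier results of these data known. Genes named were every member, up to 3 called genes in each direction and the brightest of each pathway and marker list, Alb, Lrp2, Cubn, Abca1 and Hnf4a, and the 5 genes nearest in pattern to the hepatocyte-restricted members and to Apoe. Not every gene that this rule takes is printed. Where nothing says which rats gave which RNA, p-values measure only the spread between these samples. The number of arrays limits the precision.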

Additional observations from a re-analysis of the deposited data

How the results depend on the processing

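The mean log2 ratio of every member kept its direction under all alternatives run. The median of the 10 members was -2.66 and moved beyond the spread between arrays with no normalization between the dyes (-1.54), as did that of the hepatocyte-restricted members (-2.58 against -1.52). Leaving out 1 array gave -3.16 to -2.22 and -3.11 to -2.18. Apoe minus that median moved from -0.05 to 0.31 (normexp with offset 0), 0.29 (background subtraction with a floor of 0.5) and 0.32 (Feature Extraction log ratio), and leaving out 1 array gave -0.20 to 0.042. The cause was not tested.

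Counts depended on the setting. Past the adjusted threshold were 5316 genes, 8314 with no normalization between the dyes, 1611 to 4965 without 1 array, and, after adjustment, 2 by a one-sample form of the methods' t-test, on log ratios against 0 (4475 before it, 6962 for limma). The robust variance model gave 5359 genes, 3 of the 10 members and 11 of the 30 hepatocyte markers, and ended the call of 9 of 51 genes. Past 2-fold too were 575 genes, 1301 with offset 0, 1282 with that floor, 1877 with the Feature Extraction log ratio, 1036 with median centring and 3205 when the dyes were not normalized, and leaving out 1 array gave 511 to 660. The rule used for probes with several spots was chosen after seeing the data. The every-spot rule, tried before it and added as an alternative after seeing the data, gave 5312 and 575 genes of 14122 and moved none of these results. Without replicate 3, 11.3% of the called genes were higher.

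List medians with median centring were 0.63 for assembly and secretion, 0.038 for cholesterol efflux, -0.57 for lipases, 0.35 for other apolipoproteins, 0.94 for receptors, 0.078 for transcription factors, 0.20 for adrenal cortex and 0.27 for all genes. With no normalization they were 0.98, 0.39, -0.22, 0.70, 1.29, 0.43, 0.55 and 0.62. With no filter they were -0.050 for efflux, -0.27 for lipases, 0.022 for receptors, -0.11 for transcription factors and 0.023 for adrenal cortex. Lipases were at -1.37 with offset 0, -1.36 with the floor of 0.5 and -1.40 with the Feature Extraction log ratio, and transcription factors at -0.53 with offset 0 and -0.52 with that floor. Efflux was at -0.39 with that floor, and receptors at 0.14 with the mean over probes.

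Of single genes, these turned positive with median centring: C1qb 0.23, Cebpb 0.10, Clptm1 0.38, Dgat2 0.26, Miox 0.65, Nr1h3 0.14, Nr1h4 0.053 and Nr2f2 0.28. With no normalization between the dyes C1qb was at 0.58, Cebpb 0.45, Clptm1 0.73, Dgat2 0.61, Miox 1.00, Nr1h3 0.49, Nr1h4 0.40, Nr2f2 0.63, Abca7 0.29, Clasrp 0.0079, Cyp21a1 0.23, Hnf4a 0.15, Lrat 0.24 and Scarb1 0.33. Slide was not fitted as a random block, since all arrays lay on 1 slide. Each ratio sets G200 against the control on the same array, and the test compares these ratios with 0. The control was treated as 1 sample, so the arrays are not taken as matched pairs of rats. The ratios of the dimmest genes are limited by their signal over background.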
